A study of Mus musculus with 10 samples.

Results

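The genes described here encode the subunits of oxidative phosphorylation, from both the mitochondrial and the nuclear genome. Members were the protein-coding genes whose symbol begins with mt-, or is Nduf followed by a, b, c, s or v and a number, Sdha to Sdhd, or begins with Uqcr, Cox4 to Cox8 or Atp5. The rule found 97 genes among 56748 gene identifiers, 13 of them mitochondrially encoded and 84 nuclear. RNA-seq counts per gene came from cortex of mouse embryos at E12.5, from 5 libraries labelled Emx2 KO, the knockout of a homeobox transcription factor of the dorsal telencephalon, and 5 labelled WT. The labels name no allele, strain or sex, and do not say whether each library is a separate embryo or a pool, and p-values therefore reflect variation among libraries that can be technical. The comparison asked which transcripts differ in knockout cortex. All samples were bulk tissue, in which fewer cells of a type and less RNA per cell cannot be told apart.

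Oxidative phosphorylation makes most of the ATP of respiring cells. Complex I (NADH dehydrogenase) and complex II (succinate dehydrogenase) pass electrons to ubiquinone, complex III (cytochrome bc1) passes them on to cytochrome c, complex IV (cytochrome c oxidase) reduces oxygen, and complex V (ATP synthase) uses the proton gradient that complexes I, III and IV build. The mitochondrial genome encodes core subunits of complexes I, III, IV and V, transcribed as long precursors that are cut at tRNAs, while the nuclear genome encodes all of complex II and the remaining subunits. In the embryonic cortex the dividing progenitors also rely on glycolysis, and respiration gains weight as neurons mature.

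The mitochondrially encoded members were 7 of complex I, 1 of complex III, 3 of complex IV and 2 of complex V. The nuclear members, placed by symbol, were 36 of complex I, 4 of complex II, 8 of complex III, 18 of complex IV and 18 of complex V. Ndufa4 was placed by its name in complex I although its protein is known in complex IV, and Cox7a2l and Atp5s, an assembly factor of supercomplexes and the coupling factor B, were kept for their symbols. The low-count filter passed 92 members, all 13 mitochondrially encoded and 79 nuclear. The 5 that did not pass were Cox6a2, Cox7b2 and Cox8b, which had a few reads, and Cox8c and a second identifier of Atp5o, which had 0 reads in all libraries.

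Library totals were 9720840 to 35674113 counts and fell into 2 classes, 5 large libraries of at least 24856930 counts (3 knockout, 2 wild type) and 5 small libraries of at most 14700549 (2 knockout, 3 wild type). Emx2 itself lay between 94.5 and 146 CPM (counts scaled to library totals, with the totals adjusted by the TMM method) in knockout and between 174 and 207 in wild type, with a log2 fold change of -0.59 ± 0.11 (SE) and an edgeR adjusted p of 0.00271. Transcripts were thus lower but present in the libraries labelled knockout. All 10 markers of cortex identity were counted, and 7 rose and 1, Emx2 itself, fell. Their summed level was 4105 to 4563 CPM in knockout and 3545 to 3726 in wild type. This list shares Pax6, Sox2 and Nes with that of radial glia and Tbr1 with that of neurons. Where 12.9% of all 18163 genes tested rose and 9.33% fell, 10 of 12 markers of choroid plexus fell, with sums of 67.0 to 101 CPM in knockout and 278 to 332 in wild type, while 8 of 12 markers of radial glia and 6 of 12 of neurons rose. Sums over 10 erythroid markers were 2418 to 7719 CPM in knockout and 2335 to 5715 in wild type, and no marker list had a member at 0. The part of these shifts in the results below was not tested.

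Of the 13 mitochondrially encoded genes, 8 share at least 40 bases at 99% identity or more with a transcript annotated as a pseudogene, and all of these copies lie on chromosome 1. The sequences below, from GENCODE M21 transcripts of the GRCm38 build, are shown because near-identical stretches bear on how short reads can be assigned. Positions count from 1 at the 5′ end of the mitochondrial transcript, and capitals mark the differing base. The first 61 bases of mt-Nd3 hold the single mismatch (T3C) of 345 aligned bases of 348, the first 60 bases of mt-Co2 are a stretch without a mismatch from 681 aligned bases of 684, and bases 1063 to 1123 of mt-Co1 hold the single mismatch (A1066T) of 483 aligned bases of 1545.
mt-Nd3: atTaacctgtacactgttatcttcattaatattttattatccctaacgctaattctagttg
Gm28438: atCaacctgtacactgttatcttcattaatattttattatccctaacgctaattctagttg
mt-Co2: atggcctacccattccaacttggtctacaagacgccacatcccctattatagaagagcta
Gm28661: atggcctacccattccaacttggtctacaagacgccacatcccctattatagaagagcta
mt-Co1: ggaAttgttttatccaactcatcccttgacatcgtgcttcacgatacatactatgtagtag
Gm29216: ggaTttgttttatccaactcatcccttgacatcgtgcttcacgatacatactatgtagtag

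Copies without a mismatch also covered 783 of 784 bases of mt-Co3 (Gm28437), 678 of 681 of mt-Atp6 and 43 of 204 of mt-Atp8 (Gm10925), 294 of 297 of mt-Nd4l (Gm10222) and 876 of 1378 of mt-Nd4 (Gm28439). No such copy was found for mt-Nd1, mt-Nd2, mt-Nd5, mt-Nd6 or mt-Cytb. Genes with such copies are uncertain where reads could be split between the pair, since how such reads were handled is not stated in the labels or processing notes.

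The mitochondrially encoded genes fell into 7 that were abundant and 6 that were barely counted. The 7 abundant genes, mt-Co1, mt-Cytb, mt-Nd1, mt-Nd5, mt-Nd2, mt-Nd4 and mt-Nd6, held 99.84% to 99.98% of the reads of the 13 in every library. The others, mt-Co2, mt-Co3, mt-Atp6, mt-Atp8, mt-Nd3 and mt-Nd4l, encode core subunits of the same complexes, yet mt-Co2 had 119 reads in the 5 large libraries together and 565 in the 5 small ones, where mt-Co1 had 1117936 and 477279. They are thus the 5 genes covered almost from end to end by a copy, and mt-Atp8, whose gene overlaps mt-Atp6. Their counts are not read as levels of the transcripts, and none of these 6 is compared singly with another member below. Counts, medians and sums over all 13 still include them.

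**Figure D1:**
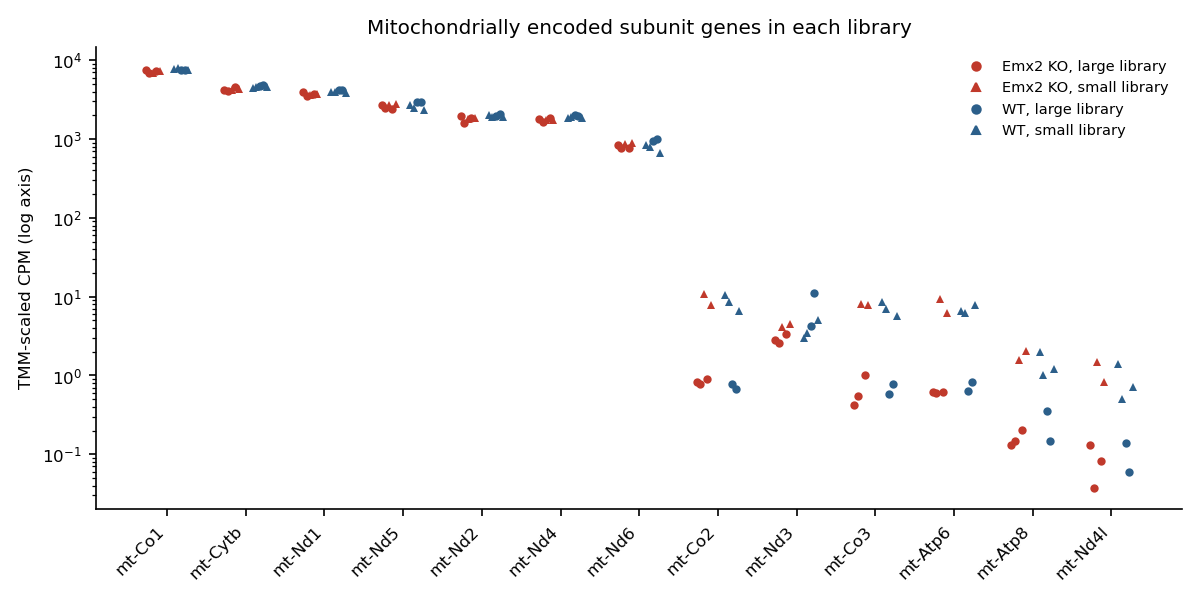
TMM-scaled CPM on a log axis for each of the 13 mitochondrially encoded genes, with 1 point per library, coloured by genotype and shaped by library size class. The 7 genes on the left stand above the 6 on the right in every library. Of the 6 on the right, 5 separate the small libraries from the large ones in both genotypes, and mt-Nd3 does not.

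In 5 of the 6 barely counted genes the level followed library size and not genotype. For mt-Co2 the large knockout libraries held 0.819, 0.779 and 0.899 CPM and the large wild-type libraries 0.774 and 0.682, against 10.8 and 7.74 CPM in the small knockout and 10.5, 8.56 and 6.50 in the small wild-type libraries. All 5 small libraries lay above all 5 large ones, with means of 8.80 and 0.791 CPM. The ratio of small to large means lay between 11.02 and 11.13 for mt-Co2, mt-Co3, mt-Atp6 and mt-Nd4l and was 7.93 for mt-Atp8.

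All 5 small libraries also lay above all 5 large ones for 6 of the 7 copies. For Gm28438 wild-type replicate 4, a large library at 0.474 CPM, lay above the small wild-type replicate 5 at 0.203 CPM. Over the 7 copies levels ranged from 0.0277 to 1.22 CPM across large libraries and from 0.203 to 14.0 CPM across small ones. Of 18163 genes tested, 89 (0.490%) were at least 4-fold higher in the mean of the small libraries with no overlap. These were 78 processed pseudogenes, 5 unprocessed pseudogenes, 5 protein-coding genes of 14128 tested, and 1 gene of another kind. The 5 protein-coding genes were mt-Co2, mt-Co3, mt-Atp6, mt-Atp8 and mt-Nd4l, a pattern chosen after the values were seen. The opposite pattern was found in 39 genes, with 0 members among them. What sets the size classes apart, besides totals, is not given in the labels.

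Among the 7 abundant genes, mt-Co1, the catalytic core of complex IV, had the highest level. Scaled to length, it stood at 4806 CPM per kb as the mean over the 10 libraries, followed by mt-Nd1 at 4060 and mt-Cytb at 3894. The highest nuclear members, Atp5b and Atp5a1, the catalytic beta and the alpha subunit of ATP synthase, stood at 396 and 231 CPM per kb, followed by Cox4i1 at 154. Tested nuclear members reached down to 0.928 CPM per kb for Cox4i2.

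No mitochondrially encoded gene passed the threshold between genotypes. With edgeR's quasi-likelihood test 0 of 13 rose and 0 fell at an adjusted p under 0.05, where 22.2% of all 18163 genes tested were called, 12.9% higher and 9.33% lower. At an unadjusted p under 0.05, 5 of the 13 were lower and 0 higher. These were 5 of the 7 abundant genes and 0 of the 6 barely counted ones, whose counts are not read as levels. Among the 13, DESeq2 called 4 lower and limma-voom 3. Of all 18163 genes, 6138 had an unadjusted edgeR p under 0.05 in either direction. DESeq2 called 2564 of the 18163 higher and 1961 lower, and limma-voom 2508 and 1899. Over the 7 abundant genes the median log2 fold change was -0.11 and the range -0.12 to -0.04, and over all 13 the median was -0.12. The signs of the 6 barely counted genes are not read as a result, as 5 of them separated by library size with wide errors (mt-Co2 -0.37 ± 1.06, SE), mt-Nd3 moved from -0.68 to -0.21 without wild-type replicate 4, and all 6 were above zero within the small libraries (0.11 to 0.39). The median over all genes tested was -0.0065.

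For mt-Nd1, a core subunit of the membrane arm of complex I, the knockout libraries held 3958, 3498, 3651, 3744 and 3783 CPM and the wild-type libraries 3958, 3958, 4181, 4252 and 3872. Knockout replicate 1 reached the level of the lower wild-type libraries, and the groups overlapped. The log2 fold change was -0.12 ± 0.05 (SE, 95% interval -0.22 to -0.02), with an edgeR adjusted p of 0.0884.

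Values for mt-Nd4, another membrane-arm subunit, were 1778, 1636, 1750, 1865 and 1769 CPM in knockout and 1851, 1890, 2000, 1971 and 1837 in wild type. Here knockout replicate 4 stood inside the wild-type range and the other knockout libraries below it. Its log2 fold change was -0.12 ± 0.05 (edgeR adjusted p = 0.0834), and that of mt-Nd2, at 1818 ± 124 CPM in knockout and 1971 ± 66.1 in wild type (SD, n = 5), was -0.12 ± 0.05 (0.135).

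For mt-Cytb, the cytochrome b of complex III, the level was 4233, 4084, 4201, 4587 and 4301 CPM in knockout and 4405, 4542, 4782, 4891 and 4525 in wild type. Only knockout replicate 4 reached into the wild-type range. With an edgeR adjusted p of 0.104, the log2 fold change was -0.11 ± 0.05. For mt-Co1 the means were 7183 ± 298 and 7668 ± 204 CPM (SD, n = 5), again with overlap, and the log2 fold change was -0.09 ± 0.04 (edgeR adjusted p = 0.137).

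mt-Nd5 and mt-Nd6, neighbouring genes on opposite strands that both encode subunits of complex I, showed another pattern across libraries than the other 5. For mt-Nd6 the knockout libraries held 850, 781, 864, 767 and 884 CPM and the wild-type libraries 846, 786, 941, 1006 and 675, and for mt-Nd5 they held 2710, 2480, 2735, 2430 and 2811 against 2671, 2511, 2975, 2988 and 2350. Wild type spanned both the lowest and the highest library for both genes. Their log2 fold changes were -0.04 ± 0.09 and -0.04 ± 0.07, with edgeR adjusted p of 0.836 and 0.789. Without a stranded count, reads of mt-Nd6 and of the opposite strand cannot be told apart.

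Both followed the code at the end of the sample titles, whose meaning the labels do not give and which each holds both genotypes. In the 4 libraries of code 14922 mt-Nd6 lay between 864 and 1006 CPM, in the 4 of code 241022 between 781 and 850, and in the 2 of code 31022 between 675 and 767, so the codes did not overlap. The same held for mt-Nd5, at 2735 to 2988, 2480 to 2710 and 2350 to 2430 CPM. All 4 libraries of code 14922 exceeded the other 6 for 3 members, these and the nuclear complex I gene Ndufa6, and for 0.699% of all genes tested, a pattern seen after the values were known. With the code as a block the log2 fold changes were -0.02 ± 0.06 for mt-Nd6 and -0.03 ± 0.05 for mt-Nd5.

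Within the large libraries alone mt-Nd6 was lower in knockout (log2 fold change -0.28, edgeR adjusted p = 0.0283), and within the small libraries the value was 0.18. No title code holds both genotypes in the same size class, so code and genotype cannot be told apart there. Over the 7 abundant genes, large libraries gave a median of -0.17 and small libraries one of -0.08, while over all 13 the small libraries gave 0.14. Above zero in the small libraries were all 6 barely counted genes and the abundant mt-Nd6 and mt-Nd5. For mt-Nd5 the log2 fold change was 0.14 there and -0.23 in the large libraries. The interaction of genotype and size class passed for 0 members by edgeR, where 0.0405% of genes passed.

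Summed over members, the mitochondrially encoded level was 23001, 20962, 21927, 22557 and 22791 CPM in knockout and 23488, 23610, 24283, 24791 and 22792 in wild type. Knockout replicate 1 lay above wild-type replicate 5, and the rest of the knockout libraries lay below all wild-type ones. The means were 22250 ± 824 and 23790 ± 769 CPM (SD, n = 5), a log2 ratio of -0.10.

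Nuclear members summed to 4281, 4075, 4083, 4103 and 4075 CPM in knockout and 3819, 3872, 4003, 3898 and 4207 in wild type. Wild-type replicate 5 lay among the knockout libraries, while the other wild-type libraries lay below them. The means were 4123 ± 88.8 and 3960 ± 154 CPM (SD, n = 5). Their log2 ratio was 0.06, and 0.012 when scaled by total counts alone.

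The ratio of the mitochondrially encoded to the nuclear sum, which no scaling of libraries alters, was 5.37, 5.14, 5.37, 5.50 and 5.59 in knockout and 6.15, 6.10, 6.07, 6.36 and 5.42 in wild type. In wild-type replicate 5 it lay within the knockout range, and in the other 4 wild-type libraries it was above all knockout libraries. The means were 5.40 ± 0.169 and 6.02 ± 0.355 (SD, n = 5). As a percent of all counts the mitochondrially encoded genes took 2.06 to 2.27 in knockout and 2.31 to 2.52 in wild type. That percent did not overlap between genotypes, whereas the TMM-scaled sum did, as TMM factors were 0.978 to 0.988 in knockout and 1.01 to 1.02 in wild type. These sums were given no test. They rest almost wholly on the 7 abundant genes, which held 99.84% to 99.98% of the reads of the 13. Levels of the other 6 are not known, and mt-Nd4 and mt-Co1 lie partly in copies. Neither the ratio nor the percent is therefore read as the full share of mitochondrial transcripts.

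**Figure D2:**
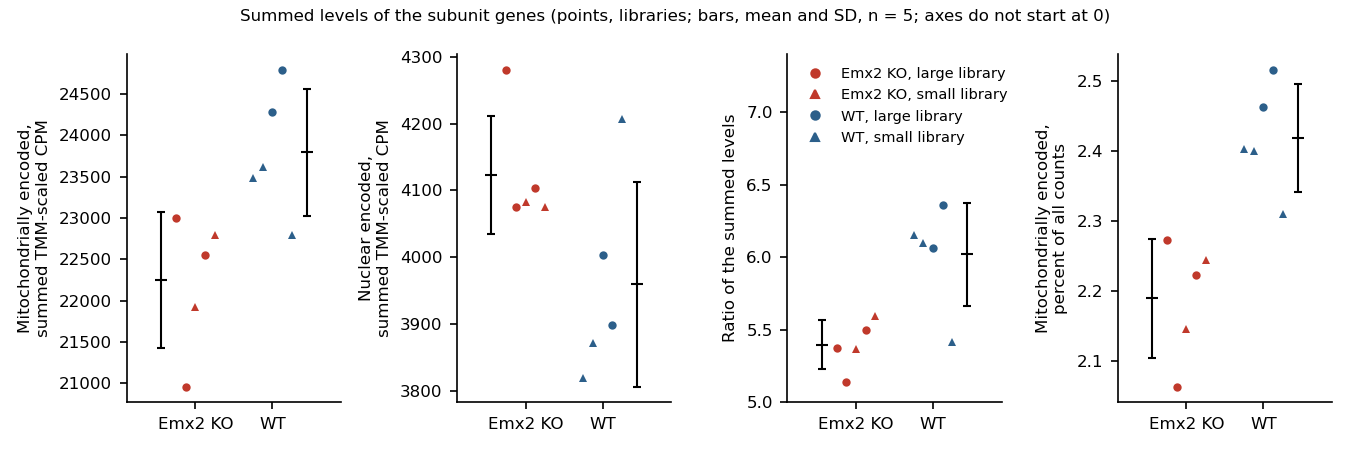
Summed TMM-scaled CPM of the mitochondrially encoded and of the nuclear members, their ratio, and the mitochondrially encoded percent of all counts, with 1 point per library and bars for mean and SD (n = 5). The axes do not start at 0. The ratio in wild-type replicate 5, 5.42, lies among the knockout libraries.

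Nuclear subunit genes differed little between genotypes. With edgeR, 5 of 79 tested nuclear members rose and 1 fell, against 12.9% and 9.33% of all genes tested. Their median log2 fold change was 0.01 and the median of its size 0.07, where the median size over all genes was 0.16 and over protein-coding genes 0.15. Of the nuclear members 74 lay within 0.2 of zero on the log2 scale, which is 93.7%, compared with 57.1% of all genes and 60.9% of protein-coding genes. Over both genomes it was 82 of 92 members tested (89.1%), including the 6 barely counted genes, of which 1 lay within 0.2. In the small libraries alone none of the 6 called genes passed by edgeR, with log2 fold changes of 0.18 for Uqcrc1, 0.14 for Atp5d, 0.11 for Sdhc, 0.10 for Atp5a1, 0.07 for Uqcrfs1 and -0.16 for Atp5h. Few genes of any kind passed there, 626 of 17598 tested, against 4039 of 18163 with all libraries. Knockout and wild-type libraries did not overlap for 4 nuclear members that were higher and 1 that was lower, where 9.63% and 7.06% of all genes did not overlap in these directions.

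**Figure D3:**
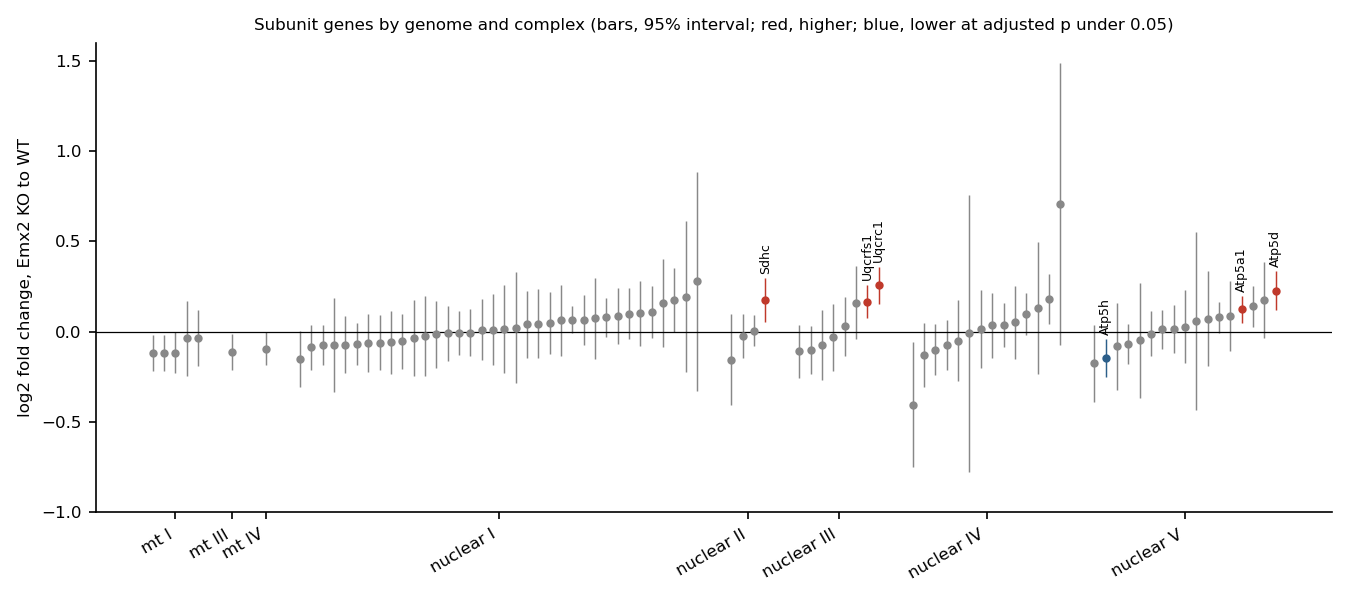
Log2 fold change of knockout to wild type with its 95% interval for tested members, ordered within genome and complex, without the 6 barely counted mitochondrially encoded genes. Red marks the 5 genes that rose, blue the 1 that fell, and the abundant mitochondrially encoded genes all lie between -0.12 and -0.04.

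In complex III 2 of 8 members rose and 0 fell (12.9% and 9.33% of all genes), and DESeq2 and limma-voom also called 2 and 0. Uqcrc1, a core subunit, held 73.1, 74.3, 72.4, 71.2 and 71.7 CPM in knockout and 60.6, 65.0, 59.03, 55.3 and 64.7 in wild type. Every knockout library lay above every wild-type one, and the knockout libraries were closely spaced. This gave a log2 fold change of 0.26 ± 0.05 (SE, 95% interval 0.15 to 0.36), with an edgeR adjusted p of 0.00243.

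Uqcrfs1 encodes the Rieske iron-sulfur protein of complex III. It stood at 115.7, 104.9, 103, 110.4 and 103 CPM in knockout and at 99.8, 95.7, 93.3, 92.2 and 98.7 in wild type. The groups did not overlap. In log2 terms the gene was higher by 0.17 ± 0.04 (edgeR adjusted p = 0.0153), and the gene passed in 19 of 23 alternatives. It missed the threshold with upper-quartile scaling (0.13), with total counts (0.12), without wild-type replicate 4 (0.15) and in the small libraries alone (0.07, edgeR adjusted p = 0.551). The other 6, among them the hinge protein gene Uqcrh (-0.11) and the core gene Uqcrc2 (-0.10), did not pass.

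In complex V 2 of 17 tested members rose, near the 12.9% of all genes, and 1 fell, against 9.33%. Atp5d, the delta subunit of the central stalk, held 113.5, 105.6, 106.9, 109.7 and 99.3 CPM in knockout and 88.2, 93.5, 93.7, 84.5 and 98.1 in wild type. Knockout replicate 5 lay just above the highest wild-type library, and the groups did not overlap. Its log2 fold change was 0.23 ± 0.05 (edgeR adjusted p = 0.00584).

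Atp5a1, the alpha subunit of the catalytic head, stood at 612, 596, 590, 586 and 593 CPM in knockout and at 552, 538, 550.5, 529 and 563 in wild type, again with no overlap. This was a log2 fold change of 0.12 ± 0.03 (edgeR adjusted p = 0.0216). It passed in 13 of 23 alternatives. It missed the threshold with upper-quartile scaling or total counts (0.09 and 0.08), without a filter (0.13), in the large (0.15) or small (0.10) libraries alone, and in 5 of 10 fits that left out a library (knockout replicate 2 and wild-type replicates 1 to 4). Its partner Atp5b, at 780 ± 20.1 and 738 ± 26.6 CPM (SD, n = 5), had a log2 fold change of 0.08 ± 0.04 and did not pass (edgeR adjusted p = 0.175).

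Atp5h, subunit d of the peripheral stalk, was the nuclear member that fell. It held 56.4, 54.7, 53.8, 54.9 and 54.0 CPM in knockout and 57.5, 56.8, 59.9, 62.2 and 66.5 in wild type. The groups did not overlap, with wild-type replicate 2 just above knockout replicate 1. At a log2 fold change of -0.15 ± 0.05 (edgeR adjusted p = 0.0482), it passed in 11 of 23 alternatives, and in 3 of the 10 among them that left out a library (without knockout replicate 1 or wild-type replicates 1 or 2). At this identity 3 pseudogenes share stretches of at most 48 of its 682 bases.

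Complex II is the succinate dehydrogenase that also works in the tricarboxylic acid cycle. Of its 4 members 1, Sdhc, rose and 0 fell, against 12.9% and 9.33% of all genes. Sdhc, a membrane anchor subunit, held 91.0, 85.3, 86.2, 86.7 and 78.4 CPM in knockout and 78.5, 68.2, 73.3, 77.2 and 82.3 in wild type. Knockout replicate 5 lay below wild-type replicates 1 and 5, so the groups overlapped. At a log2 fold change of 0.17 ± 0.06 (edgeR adjusted p = 0.0389), it passed in 11 of 23 alternatives, and in 2 of the 10 among them that left out a library (without knockout replicate 5 or wild-type replicate 5). The flavoprotein gene Sdha was at 102 ± 3.16 and 102 ± 3.99 CPM (SD, n = 5), with a log2 fold change of 0.0048, and Sdhb (-0.15) and Sdhd (-0.02) did not pass either.

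**Figure D4:**
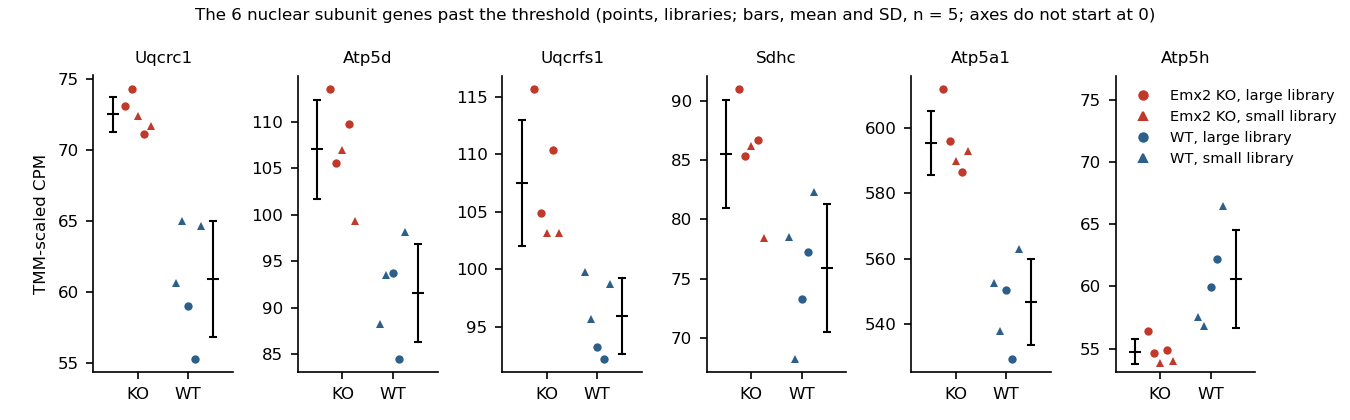
TMM-scaled CPM in each library for the 6 nuclear members past the threshold, with bars for mean and SD (n = 5). The axes do not start at 0. Knockout libraries lie above all wild-type ones for Uqcrc1, Atp5d, Uqcrfs1 and Atp5a1, below them for Atp5h, and overlap for Sdhc.

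Complex I, with the most subunits, had 0 of 36 nuclear members called in either direction by edgeR, against 12.9% higher and 9.33% lower of all genes. At an unadjusted p under 0.05, 1 was higher, where 6138 of all 18163 genes passed in either direction. DESeq2 and limma-voom also called 0. Their median log2 fold change was 0.01, and the summed level was 960.5 ± 18.5 CPM in knockout and 946 ± 49.2 in wild type (SD, n = 5). Ndufv1, which carries the NADH-binding site, stood at 92.6 ± 1.88 and 88.5 ± 2.19 CPM (log2 fold change 0.07 ± 0.03, edgeR adjusted p = 0.202).

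Complex IV had 0 of 14 tested nuclear members called by edgeR, against 12.9% higher and 9.33% lower of all genes. At an unadjusted p under 0.05, 1 was higher and 1 lower, where 6138 of all 18163 genes passed in either direction. DESeq2 and limma-voom each called 1 higher. That gene was Cox6a1, the widely expressed form of subunit VIa, with 85.0, 74.0, 73.4, 76.2 and 68.7 CPM in knockout and 60.4, 66.3, 67.0, 65.3 and 74.1 in wild type. Wild-type replicate 5 lay among the knockout libraries. The log2 fold change was 0.18 ± 0.06 with an edgeR adjusted p of 0.0585. Cox4i1, which encodes a regulatory subunit, was at 119 ± 9.82 and 116 ± 5.20 CPM (SD, n = 5), with a log2 fold change of 0.04.

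Several subunits of complex IV have paralogs with restricted expression, and the widely expressed form dominated. As means over 10 libraries scaled to length, Cox4i1 stood at 154 CPM per kb and the lung-type paralog Cox4i2 at 0.928. Cox6a1 stood at 124 CPM per kb and the heart and muscle form Cox6a2 at 0.0218. Cox7a2 stood far above the muscle form Cox7a1, at 1.597 CPM per kb, Cox7b at 26.9 and Cox7b2 at 0.0341, and Cox8a at 138, Cox8b at 0.0366 and Cox8c at 0.

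For Cox6b the gap was smaller, with Cox6b1 at 33.2 CPM per kb and Cox6b2, known as the testis form, at 9.68. Cox6b2 held 5.80, 4.94, 3.71, 5.72 and 3.94 CPM in knockout and 7.4, 5.87, 6.11, 5.43 and 7.72 in wild type. Wild-type replicate 4 lay among the knockout libraries. The log2 fold change was -0.40 ± 0.16 and did not pass (edgeR adjusted p = 0.0905), at -0.07 with large libraries alone and -0.87 with small ones. Cox7a1, at 0.811 ± 0.285 and 0.444 ± 0.221 CPM (SD, n = 5), had a log2 fold change of 0.71 ± 0.36 and did not pass either (0.191).

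The spread between libraries, apart from genotype and counting noise, differed among nuclear members. The biological coefficient of variation estimated by edgeR was 4.995% for Ndufv1 and 5.41% for Sdha, and 29.95% for Ndufa12, 24.7% for Atp5l and 20.9% for Ndufb6. Ndufa12 and Atp5l, chosen after their values were seen, were each at 2 separate levels. Ndufa12, an accessory subunit of complex I, held 16.4, 7.42, 12.8, 14.5 and 7.19 CPM in knockout and 8.65, 6.31, 14.2, 8.95 and 9.44 in wild type. Knockout replicates 1, 3 and 4 and wild-type replicate 3 formed the upper level.

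Ndufa12 has a pseudogene copy on chromosome 5, Gm15920, with 402 aligned bases and 2 mismatches. The copy stood at 23.9, 19.8, 21.1 and 20.4 CPM in the 4 libraries where Ndufa12 was high, and at 28.3 to 39.1 CPM in the other 6. Libraries high in the gene were thus low in its copy. Reads of Ndufa12 could be split between both, and its level is uncertain for this reason.

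Atp5l, subunit g of ATP synthase, held 10.4, 15.3, 8.82, 15.8 and 15.6 CPM in knockout and 16.2, 9.72, 10.01, 17.3 and 9.75 in wild type. The upper level held 5 libraries, 3 knockout and 2 wild type, of both size classes, and was not the set in which Ndufa12 was high. Of its 2 pseudogene copies at this identity, the one with the longest alignment, Atp5l2-ps, shares 312 aligned bases with 2 mismatches and reached at most 0.368 CPM. Neither gene passed between genotypes (log2 fold changes 0.28 ± 0.27 and 0.06 ± 0.22). In all, 9 nuclear members had a pseudogene copy at this identity.

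**Figure D5:**
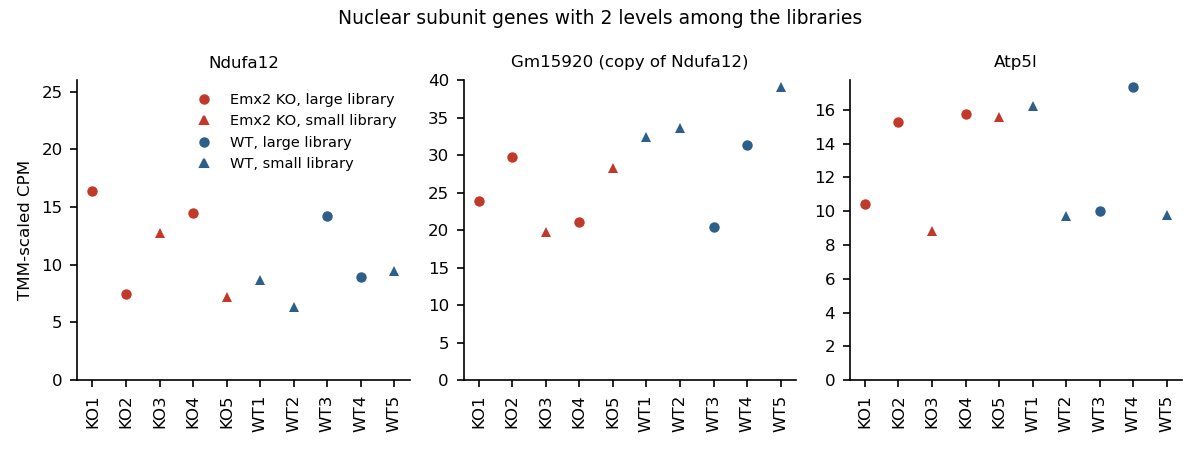
TMM-scaled CPM of Ndufa12, of its pseudogene copy Gm15920 and of Atp5l in each of the 10 libraries, coloured by genotype and shaped by library size class. Ndufa12 is above 12 CPM and Gm15920 below 24 CPM in the same 4 libraries. Atp5l is above 15 CPM in a different set of 5.

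Nuclear subunit genes are known targets of the factors NRF1, GABP (an ETS factor), YY1 and the estrogen-related receptors. RefSeq windows of 300 bases, 250 before and 50 after a start (GRCm38.p6), matched 68 of the 84 nuclear members, in 73 windows. The NRF1 motif GCGCATGC occurred on either strand in 13.7% of them and in 2.69% of 32778 other windows. The YY1 motif AAGATGGC occurred in 13.7% and 2.72%, the ETS motif CCGGAAGT in 6.85% and 3.88%, the receptor motif TCAAGGTCA in 2.74% and 0.418%, and TATAAA in 11.0% and 13.6%. A match is a run of letters and not a measured site.

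Stretches of 41 bases upstream of the start are shown for 3 members with the NRF1 motif and for Atp5h, the member that fell, with the ETS motif, each 5′ to 3′ on the gene's strand with the motif in capitals. For Cox6a1 and Atp5k both strands' NRF1 motifs overlap. They come from GRCm38.p6 at chr5:115349095-115349135 (minus strand, Cox6a1), chr4:140961201-140961241 (plus, Sdhb), chr5:108434424-108434464 (minus, Atp5k) and chr11:115419934-115419974 (minus, Atp5h).
Cox6a1: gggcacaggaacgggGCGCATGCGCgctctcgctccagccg
Sdhb: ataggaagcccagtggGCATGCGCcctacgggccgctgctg
Atp5k: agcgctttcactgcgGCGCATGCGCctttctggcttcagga
Atp5h: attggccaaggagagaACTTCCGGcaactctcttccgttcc

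The log2 fold changes of these genes were 0.18 for Cox6a1, -0.15 for Sdhb, 0.09 for Atp5k and -0.15 for Atp5h, and Atp5h alone of them passed. Of the 5 members that rose, Uqcrc1 held overlapping NRF1 motifs at bases 31 and 33 after the start, Uqcrfs1 and Atp5d held none of the NRF1, ETS, YY1 and receptor motifs, and Sdhc and Atp5a1 had no matched window.

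Of 45 tested assembly factors of the complexes 2 rose and 2 fell, with a median log2 fold change of 0.03. These counts, and those of the lists below, stand against 12.9% higher and 9.33% lower among all genes tested. At an unadjusted edgeR p under 0.05, 6138 of all 18163 genes passed in either direction. DESeq2 called 2564 of the 18163 higher and 1961 lower, and limma-voom 2508 and 1899. Cox10, which makes heme for complex IV, stood at 24.4 ± 1.53 and 19.1 ± 1.41 CPM (SD, n = 5, log2 fold change 0.36 ± 0.07, edgeR adjusted p = 0.0027), and Cox19, a copper factor of the same complex, rose by 0.35 (0.00356). Tmem70, an assembly factor of ATP synthase, stood at 22.7 ± 1.51 and 29.4 ± 1.65 CPM (-0.37 ± 0.06, 0.0013), and the copper chaperone Cox17 was also lower (-0.29, 0.0174).

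Among 17 genes of mitochondrial DNA maintenance and transcription 2 rose and 0 fell, Tfb1m, a methyltransferase of the mitochondrial ribosomal RNA (log2 fold change 0.50 ± 0.16, edgeR adjusted p = 0.0381), and Tk2, the mitochondrial thymidine kinase (0.16 ± 0.06, 0.0493). By unadjusted p under 0.05, 4 were higher and 3 lower, and DESeq2 and limma-voom called the same numbers as edgeR. Of 17 tested genes of mitochondrial RNA processing 0 rose and 2 fell. At an unadjusted p under 0.05, 1 was higher and 4 lower. DESeq2 called 0 higher and 2 lower, and limma-voom 0 higher and 3 lower. The 2 that fell by edgeR were Trmt10c, a subunit of mitochondrial RNase P (34.5 ± 2.93 and 41.9 ± 3.47 CPM, -0.28 ± 0.07, edgeR adjusted p = 0.0153), and the polynucleotide phosphorylase Pnpt1 (-0.22 ± 0.07, 0.0498).

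The mitochondrial ribosomal and transfer RNAs had 12 of 24 tested, of which edgeR called 0, with 1 lower at an unadjusted p under 0.05, 1 lower by DESeq2 and 0 by limma-voom. All 12 log2 fold changes were negative, with a median of -0.15 and a range of -1.47 to -0.04. Of all 18163 genes tested, 9291 were negative. Their median biological coefficient of variation was 24.2% for these RNAs and 9.29% for nuclear members. Copies of these RNAs were not searched for, and their shared sign is not read as a result. The 12S ribosomal RNA gene mt-Rnr1 stood at 300.3 ± 19.1 CPM in knockout and 334 ± 82.2 in wild type (SD, n = 5).

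Of 77 tested mitochondrial ribosomal proteins 2 rose, Mrpl43 (0.32) and Mrps26 (0.21), and 0 fell by edgeR. At an unadjusted p under 0.05, 6 were higher and 6 lower, DESeq2 called 2 higher and 2 lower, and limma-voom called 4 higher and 1 lower. Of 12 regulators of nuclear subunit genes 3 rose and 2 fell, against 12.9% and 9.33% of all genes. Yy1 rose from 202 ± 7.14 to 236 ± 8.03 CPM (SD, n = 5, log2 fold change 0.22 ± 0.04, edgeR adjusted p = 0.0012), and Esrra (0.30) and Myc (0.28) rose. Gabpb2, a subunit of GABP, stood at 180 ± 4.97 CPM in knockout and 211 ± 7.71 in wild type (-0.22 ± 0.04, 0.000923), and Sp1 was lower (-0.24).

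In the tricarboxylic acid cycle, which feeds complexes I and II, 2 of 14 genes rose and 1 fell, near the 12.9% and 9.33% of all genes. Ogdh, a component of the oxoglutarate dehydrogenase complex, stood at 121 ± 5.67 and 94.4 ± 3.27 CPM (SD, n = 5), with a log2 fold change of 0.36 ± 0.04 and an edgeR adjusted p of 0.000104. Citrate synthase, Cs, rose by 0.15 (0.00503), and Dld, a subunit shared by the oxoglutarate and pyruvate dehydrogenase complexes, was lower (-0.17, 0.0229). Of 11 tested carriers 2 rose, the phosphate carrier Slc25a3 (0.12) and the adenine nucleotide carrier Slc25a4 (0.14), and 1 fell, Etfdh (-0.24).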

How the data were processed

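The authors deposited raw counts per Ensembl gene for each of the 10 libraries, as whole numbers that were not normalized. Tools named in the submitters' processing notes are bcl2fastq 2.20, STAR 2.7.8a and featureCounts 1.6.3-p1, with the builds GRCm39 and rn6; strand, multimapping settings and annotation release are not given in the sources used here. Per the labels, total RNA was used with standard Illumina protocols. Symbols matched 52073 of 56748 identifiers. Biotypes, lengths (principal transcript) and transcripts came from GENCODE M21, by gene identifier.

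Counts were filtered (edgeR filterByExpr, minimum count 10, 18163 genes), scaled by TMM and tested with edgeR's quasi-likelihood F test with robust estimation (edgeR 4.0.16, R 4.3.3), two-sided; p-values were adjusted by Benjamini-Hochberg over every gene tested, and the threshold was 0.05. CPM used TMM-scaled totals. Pseudogene copies were found with blastn 2.17.0. The test was checked on simulated counts. No pair of libraries within a genotype agreed within sampling noise (chi-square per gene 9.10 to 24.3 over 20 pairs), so none was merged. The members and lists were chosen with earlier results of these data known. Named were all mitochondrially encoded members, per complex the called members with the smallest p and the 2 of highest CPM, paralogs of complex IV, and up to 3 called genes per related list; 1 gene that the rule names is not reported here, and further names were chosen after their values were seen. Alternatives were scalings, filters, DESeq2 1.42.0, limma-voom (limma 3.58.1), title code or size class as a block, either size class alone, a stricter threshold and each library left out. A fit without robust estimation and the sum over the 7 abundant genes were added after seeing the data.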

Additional observations from a re-analysis of the deposited data

Results flagged for a closer look

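Among 64 groups of 5 libraries examined for named members, 1 held a library far from the other 4, where chance flags about 1 in 20 groups. Wild-type replicate 4 was highest for mt-Nd3 at 11.1 CPM, with the next at 5.08, a gap of 0.744 of the range. Its copy Gm28438 stood in that library at 0.474 CPM, and in the other 4 large libraries at 0.0277 to 0.111 CPM. The log2 fold change of mt-Nd3 was -0.68 with this library and -0.21 without it.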

How the results depend on the processing

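The number of mitochondrially encoded members called lower, 0 with edgeR, was 3 with upper-quartile scaling, 5 with total counts alone, 4 with DESeq2, 3 with limma-voom and 1 in the large libraries alone, and 0 to 1 when each library was left out. Among all 18163 genes, 1694 were lower with edgeR, 2245 with upper-quartile scaling and 2457 with total counts alone. DESeq2 called 1961 lower and limma-voom 1899. In the large libraries alone 1389 of 20052 genes were lower. The number of nuclear members called higher, 5, was 2 with upper-quartile scaling, 2 with total counts, 0 in the small libraries alone, 2 at an adjusted p under 0.01, and 2 to 7 when each library was left out. The number called lower, 1, was 0 without a filter, with size class as a block, in the large or small libraries alone and at an adjusted p under 0.01, and 0 to 1 when each library was left out. Over all 18163 genes, 2345 were higher with edgeR, 1899 with upper-quartile scaling and 1793 with total counts. Genes called lower were 1440 of 36757 without a filter and 1573 of 19097 with size class as a block. With each library left out, 1767 to 2303 genes were higher and 1310 to 1758 lower. Counts over all genes at an adjusted p under 0.01 are not given here. The small libraries alone gave 335 higher and 291 lower of 17598, against 2345 and 1694 of 18163 with all libraries. In the small libraries alone the median over all 13 mitochondrially encoded members was 0.14 in place of -0.12, and its difference from the nuclear median was 0.12 in place of -0.13. Above zero there were all 6 barely counted genes and the abundant mt-Nd5 (0.14) and mt-Nd6 (0.18). These abundant genes were at -0.23 and -0.28 in the large libraries alone. Title code and genotype cannot be told apart within a size class, and the change of sign is not read as a result. Over the 7 abundant genes the median was -0.08 in the small libraries (range -0.13 to 0.18) and -0.11 with all libraries. The log2 ratio of the summed nuclear level was 0.012 with total counts in place of 0.06. The median over all genes was -0.04 with upper-quartile scaling and -0.05 with total counts. The cause of these differences was not tested. Of 731 values of named members under the alternatives 616 kept their direction and their side of the threshold, and no called value changed direction. Another 40 lost the threshold that the main fit passed, and 23 passed where the main fit did not. The remaining 52 moved without crossing the threshold. Cox6b2 passed with the title code as a block (adjusted p = 0.0286). The labels give no replicate number shared by the genotypes, so libraries were not paired singly. The title code, shared by both genotypes, was fitted as a block, with 0 mitochondrially encoded and 5 nuclear members higher and 0 and 1 lower. Over all genes that fit called 2331 higher and 1692 lower of 19743. Counts of the 6 barely counted mitochondrially encoded genes, from 77 reads in all libraries for mt-Nd4l to 1023 for mt-Nd3, limit what can be said of them.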
